A study of Mus musculus with 25 samples.

Results

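A set of 10 genes that load and start the replicative helicase were followed through mouse liver development. They are the 6 subunits of the MCM ring (Mcm2, Mcm3, Mcm4, Mcm5, Mcm6 and Mcm7), the loading factors Cdc6 and Cdt1, and Mcm10 and Gins1, which act when the loaded helicase starts to unwind DNA. They were chosen by name as 10 of the 18193 genes measured. On the array, 28 of 45101 probe sets were annotated to exactly 1 of these symbols. Of a gene's sets, the brightest on average across the stages was used.

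Whole livers of random-bred C57/B6 mice were taken at 14 stages, without any treatment or modified allele named in the labels. The fetal stages were the 8 embryonic days from E11.5 to E18.5, taken 1 day apart, and the postnatal stages were the day of birth (Day0), days 3, 7, 14 and 21 (Day3 to Day21) and 18 weeks (adult). Livers were pooled before RNA extraction, 12 at E11.5, 9 at E12.5 and E13.5, 6 on the next 2 days, and 3 from E16.5 on. There are 25 arrays: 11 stages have 2 technical repeats, and the other stages (E18.5, Day7, Day14) a single array. Each stage is thus 1 pool, and comparisons between fetal and postnatal liver rest on 8 against 6 pools of different ages. The spread behind those p-values is the spread between pools, and p-values for steps between single stages measure only the spread of technical repeats.

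A replication origin is licensed in G1 phase, when the origin recognition complex, Cdc6 and Cdt1 place a double ring of MCM proteins around the DNA. In S phase the kinases CDK and Cdc7-Dbf4 activate the ring, Cdc45 and the GINS complex join it, and licensing is then blocked, in part through geminin, until the next cycle. The fetal liver is the main blood-forming organ of the embryo and holds many dividing cells, whereas most hepatocytes of the adult liver are out of the cycle. The genes of the ring are textbook targets of E2F transcription factors.

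Promoter windows are shown as a description, because E2F is a known regulator of genes of the ring. Any link between promoter letters and the changes in level was not tested. RefSeq windows of 250 bases before to 50 bases after the start (build GRCm38.p6) were found for 8 of the 10 genes. The letters TTTCCCGC, TTTGGCGC, TTTCGCGC and TTTGCCGC were searched on both strands, where matches may overlap. They occurred in the windows of 6 of those 8 genes (Mcm3, Mcm5, Mcm6, Mcm7, Cdc6 and Cdt1), against 2.26% of all 32851 windows of the same length. At least 2 matches in a window were found in 0.0974% of all windows, and Mcm3, Mcm5, Mcm6 and Mcm7 were among them. The letters CCAAT, on either strand, occurred for 6 of the 8 genes and in 37.4% of all windows. The E2F letters were not found in the windows of Mcm2 and Mcm10, which says only that they are not in these windows. In the stretches printed here the matched letters are in capitals and the sequence runs 5′ to 3′ on the strand of the gene.
Mcm5, upstream, chr8:75109347-75109376, plus strand: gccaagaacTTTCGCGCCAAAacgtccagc
Mcm6, upstream, chr1:128359795-128359824, minus strand: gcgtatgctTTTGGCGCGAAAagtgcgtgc
Mcm6, upstream, chr1:128359734-128359763, minus strand: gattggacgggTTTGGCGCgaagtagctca
Mcm7, upstream, chr5:138172030-138172059, minus strand: aatttcgaaccGCGGGAAAcagggtgtcca
Cdc6, upstream, chr11:98908002-98908031, plus strand: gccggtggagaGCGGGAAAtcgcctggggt
Mcm3, after the start, chr1:20820266-20820295, minus strand: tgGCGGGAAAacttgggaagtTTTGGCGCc
Mcm7, after the start, chr5:138171849-138171878, minus strand: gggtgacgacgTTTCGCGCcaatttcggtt
Cdt1, after the start, chr8:122568035-122568064, plus strand: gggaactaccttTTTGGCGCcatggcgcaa
In Mcm5 and in the first Mcm6 stretch 2 matches on opposite strands overlapped, so the capitals there cover both. The wider Mcm6 context holds all 3 of its matches within 250 bases before the start, at chr1:128359706-128359955 on the minus strand.
Mcm6: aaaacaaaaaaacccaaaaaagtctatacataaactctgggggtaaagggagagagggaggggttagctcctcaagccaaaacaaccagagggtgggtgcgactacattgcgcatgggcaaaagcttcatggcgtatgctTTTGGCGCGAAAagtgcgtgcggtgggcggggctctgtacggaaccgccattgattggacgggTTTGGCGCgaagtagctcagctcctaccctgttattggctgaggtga
These matches start 110, 106 and 47 bases before the RefSeq start of Mcm6. No factor binding was measured here.

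Levels are log2 array intensities, and a difference of 1 is a 2-fold difference. A gene is called where limma's adjusted p (Benjamini-Hochberg over all 18193 genes) is under 0.05 and the change is at least 1 log2 unit. Levels are compared between stages of the same probe set and not between genes. Within a stage that has 2 arrays, a single array had a standard deviation of 0.111 to 0.216 log2 units over all genes. The difference between 2 repeats is wider than that. For the 10 genes the first repeat was above the second in 91 of 110 gene and stage pairs, by 0.22 in the median. The stages with 1 array (E18.5, Day7, Day14) have a first repeat only, so their levels may lie high beside stages averaged over 2. In the skeletal muscle list, kept as a sign of other tissue, the summed intensity was 1492 at E18.5 against 230 to 304 at the other stages. In these bulk samples fewer cells of a type and less RNA per cell cannot be told apart.

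All 6 ring subunits were brightest at E11.5 or E12.5 and dimmest in the adult pool, and 5 of them were higher in fetal than in postnatal liver. Mcm2 lay at 10.90 at E11.5, 11.01 at E12.5, 9.57 at E18.5, 9.06 at Day0, 9.49 at Day3, 8.74 at Day7, 7.34 at Day14, 6.95 at Day21 and 6.68 in the adult. It was the only 1 of the 10 genes whose 8 fetal pools (9.57 to 11.01, median 10.45) all lay above its 6 postnatal pools (6.68 to 9.49, median 8.04). Separation with fetal liver higher was seen in 1.58% of all genes. Mcm2 stood 2.29 ± 0.45 log2 units higher in fetal pools (SE, 8 against 6 pools, limma adjusted p = 0.00377).

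Mcm4 and Mcm7, which form the catalytic core of the ring together with Mcm6, were higher in fetal liver. Mcm4 ranged from 8.83 to 10.78 in fetal pools (median 10.18) and from 5.76 to 8.99 in postnatal pools (median 7.41), a difference of 2.65 ± 0.55. Mcm7 ranged from 10.39 to 11.75 (median 11.27) and from 6.57 to 10.46 (median 8.97), a difference of 2.42 ± 0.59. In both genes the classes overlapped because the pool of Day3 was brighter than the dimmest fetal pool. Other sets gave 3.07 for Mcm4 and 1.68 to 1.82 for Mcm7. Mcm5, which closes the gate of the ring with Mcm2, differed by 2.26 ± 0.51, and Mcm3 by 1.68 ± 0.36. Mcm6 differed by 1.48 ± 0.55 and was not called (limma adjusted p = 0.0738). Its fetal pools spanned 9.89 to 10.86 and its postnatal pools 6.11 to 10.48, with the postnatal maximum at Day7. It was called without the Day7 pool (1.79), without the Day3 pool (1.72), after quantile normalisation (1.57) and with the mean of its sets (1.34). Without the adult pool the difference was 0.91 and was not called.

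**Figure D1:**
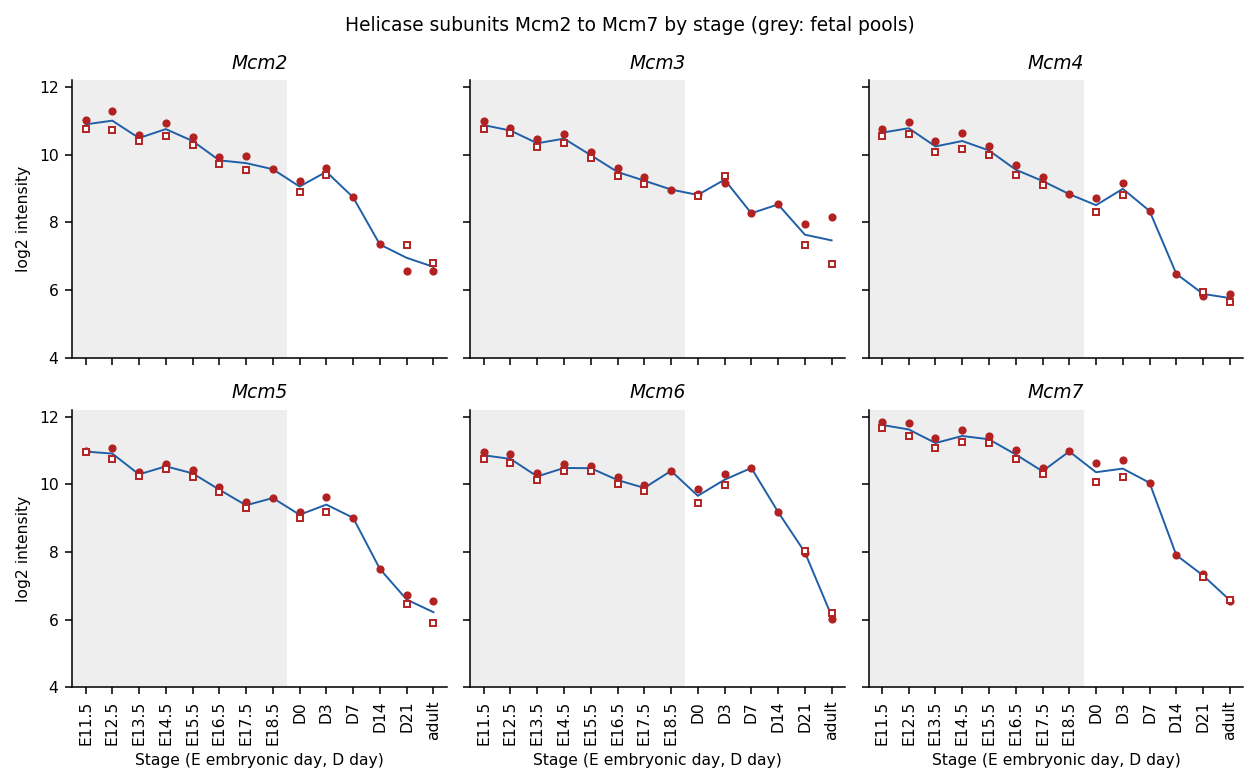
Log2 intensity of Mcm2 to Mcm7 at each stage, in order of age, with filled circles for repeat 1, open squares for repeat 2, a line through stage means and grey behind fetal pools. Mcm2, Mcm4, Mcm5 and Mcm7 drop between Day7 and Day14, while Mcm6 is still at 10.48 at Day7 and reaches 6.11 in the adult.

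Both loading factors were higher in fetal liver as well. Cdc6, the ATPase that recruits the ring to the origin, lay between 7.66 and 9.89 in fetal pools (median 9.29) and between 4.62 and 7.95 in postnatal pools (median 5.41). Its excess of 3.11 ± 0.57 (limma adjusted p = 0.00272) was the largest among the sets used, and the pools of E18.5 and Day3 made the overlap. Cdt1, the partner that is destroyed or bound by geminin once S phase begins, lay between 9.39 and 11.03 in fetal pools and between 5.71 and 9.59 in postnatal pools. Its excess was 2.40 ± 0.62. Gins1, a subunit of the GINS complex, differed by 1.29 ± 0.33, from 6.81 to 8.58 in fetal and from 5.70 to 7.59 in postnatal pools. Mcm10, which binds the activated helicase, differed by 0.90 ± 0.26 (limma adjusted p = 0.0245), under the limit of 1 log2 unit. It passed that limit without E18.5 (1.01) or without the adult pool (1.12). Of the 10 genes 8 were called higher in fetal liver, against 4.50% of all genes. None was called lower, against 5.01% of all genes, nor was any lower at an unadjusted p under 0.05 in limma. The median difference was 2.28 over the 10 genes and -0.01 over all genes.

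**Figure D2:**
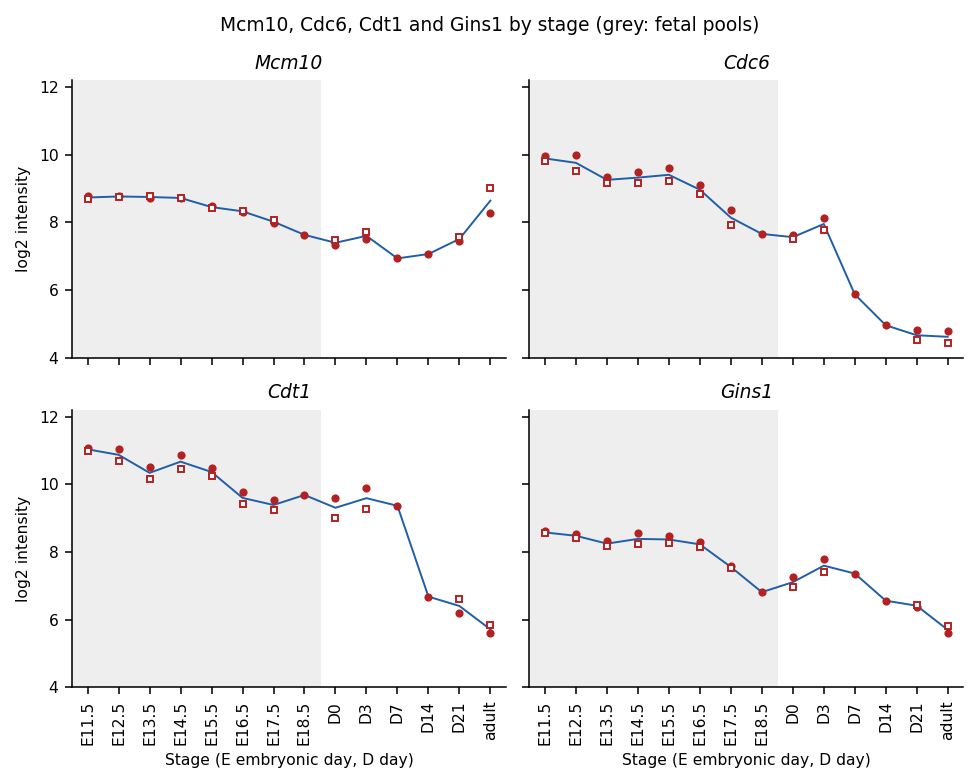
Log2 intensity of Mcm10, Cdc6, Cdt1 and Gins1 at each stage, drawn as for the ring subunits. Cdc6 drops between Day3 and Day7 to 5.87, Cdt1 between Day7 and Day14 to 6.68, and Mcm10 is at 6.93 at Day7 and 8.64 in the adult.

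The decline began before birth. A line through the 8 fetal pools gave a fitted change from E11.5 to E18.5 of -2.04 ± 0.32 for Cdc6, -1.98 ± 0.17 for Mcm3, -1.90 ± 0.23 for Mcm4, -1.62 ± 0.27 for Cdt1 and -1.57 ± 0.21 for Mcm5. The slopes of Mcm2 (-1.49 ± 0.20), Gins1 (-1.42 ± 0.35), Mcm10 (-1.08 ± 0.19) and Mcm7 (-1.07 ± 0.25) were shallower. Mcm6 had the smallest change, -0.65 ± 0.23, and was not called (limma adjusted p = 0.0688). So 9 of 10 genes fell over fetal life, against 12.0% of all genes, and none rose, against 4.40%. No gene of the 10 rose at an unadjusted p under 0.05 in limma. The median change was -1.53 over the 10 genes and 0.04 over all genes.

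These fetal calls depend on how arrays are scaled and on the probe sets. With arrays set to equal levels of housekeeping genes the median of all genes shifted by 0.54 and 5 of the 10 genes fell, without Mcm2 (-0.95), Mcm7 (-0.53), Mcm10 (-0.55) and Gins1 (-0.88). After quantile normalisation 6 fell, without Mcm7 (-0.83), Mcm10 (-0.64) and Gins1 (-1.01). With the mean of a gene's sets 6 fell, without Mcm10 (-0.29), Cdt1 (-0.83) and Gins1 (-0.75). Of all genes called over the fetal course, 26.9% rose as deposited, 41.7% after quantile normalisation and 73.5% at equal housekeeping levels. Without the E18.5 pool, which carried the muscle signal, 7 of the 10 genes fell, and Mcm10 (-0.83) and Gins1 (-0.86) were not among them. Mcm7 was not called without E11.5 (-1.04), without E17.5 (-0.82) or without the first repeat arrays (-0.97).

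**Figure D3:**
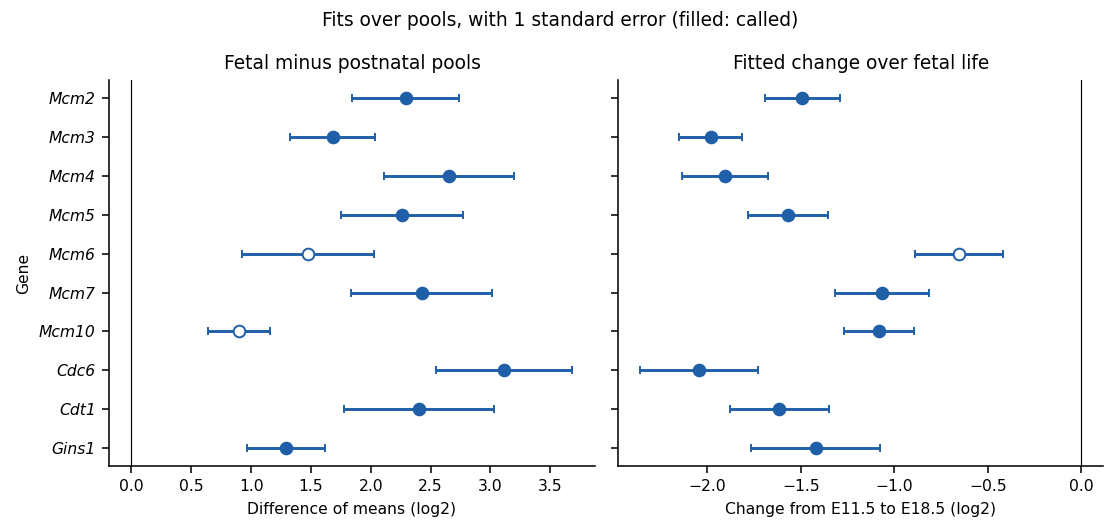
Fitted difference of fetal minus postnatal pools (left) and fitted change from E11.5 to E18.5 (right) for each gene, in log2 units with bars of 1 standard error and filled points where called. Mcm6 and Mcm10 are open on the left and Mcm6 is open on the right.

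On the linear scale, relative to E11.5, the ring subunits stood at 38.2% (Mcm3) to 60.2% (Mcm6) at E16.5 and at 26.7% (Mcm3) to 72.7% (Mcm6) at E18.5. By Day0 they stood at 22.6% (Mcm4) to 43.6% (Mcm6), and at Day3 at 31.6% (Mcm4) to 60.6% (Mcm6). All 10 genes had a higher mean at Day3 than at Day0, by 0.11 (Mcm7) to 0.49 (Gins1) log2 units. None of these increases was called, against 1.81% of all genes called rising at that step. The median change at the step was 0.41 over the 10 genes and -0.007 over all genes. The genes share the same pool at each stage, so they are not separate observations of a rise. At an unadjusted p under 0.05 in limma 3 of the 10 passed, and the share of all genes passing was not counted. Gins1 alone had a limma adjusted p under 0.05 (0.0423).

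The called falls between neighbouring stages all lay after Day3. Across the 13 steps between neighbouring stages the 10 genes gave 130 gene and step pairs, of which 9 fell and 1 rose, against 1.34% and 1.54% of such pairs over all genes. None of the 70 pairs between fetal stages was called. At an unadjusted p under 0.05 in limma 19 passed. The share of all genes passing at these steps was not counted, so the 19 cannot be judged against it. On the limma adjusted p alone 2 passed, both of Gins1. These were E16.5 to E17.5 (-0.67) and E17.5 to E18.5 (-0.75), under the limit of 1 log2 unit. Cdc6 was the first to have a called step, from 7.95 at Day3 to 5.87 at Day7, where 2.84% of all genes fell. This change was -2.08 ± 0.25 (limma adjusted p = 4.54e-05), and Day7 had 1 array.

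From Day7 to Day14, 6 of the 10 genes fell, against 4.56% of all genes. Cdt1 went from 9.36 to 6.68 (-2.69 ± 0.34), Mcm7 from 10.04 to 7.90 (-2.14 ± 0.28) and Mcm4 from 8.34 to 6.48 (-1.86 ± 0.28). Mcm5 (-1.51 ± 0.27), Mcm2 (-1.39 ± 0.34) and Mcm6 (-1.30 ± 0.22) fell too. Mcm3, at 8.27 and 8.53, did not. Both stages had 1 array, so these errors assume that they vary like stages with 2. After quantile normalisation the changes of Mcm2 (-0.88), Mcm5 (-0.90) and Mcm6 (-0.64) at this step were under 1 log2 unit. Between Day3 and Day21, which had 2 arrays each, 9 of the 10 genes fell, against 4.45% of all genes, and none rose, against 3.16%. That comparison was added after the values were seen. The changes ranged from -1.18 ± 0.14 (Gins1) to -3.29 ± 0.21 (Cdc6), and Mcm10, at -0.09 ± 0.16, was not called.

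With the set used, Mcm6 also fell at both later steps. It dropped from 9.18 at Day14 to 7.99 at Day21 (-1.19 ± 0.19, limma adjusted p = 0.000958) and to 6.11 in the adult (-1.88 ± 0.16, limma adjusted p = 1.16e-06), where 0.528% and 1.20% of all genes fell. With the mean of its sets the step from Day14 to Day21 was -0.46 and was not called (limma adjusted p = 0.0683). In the adult the ring subunits stood at 2.75% (Mcm7) to 9.41% (Mcm3) of their E11.5 level. Cdc6 ended at 4.62, at the 17.9th percentile of all probe sets on that pool's arrays, so how far it dropped is limited by the probe set. The repeat arrays of the adult pool read 8.16 and 6.77 for Mcm3, so its end level is uncertain.

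**Figure D4:**
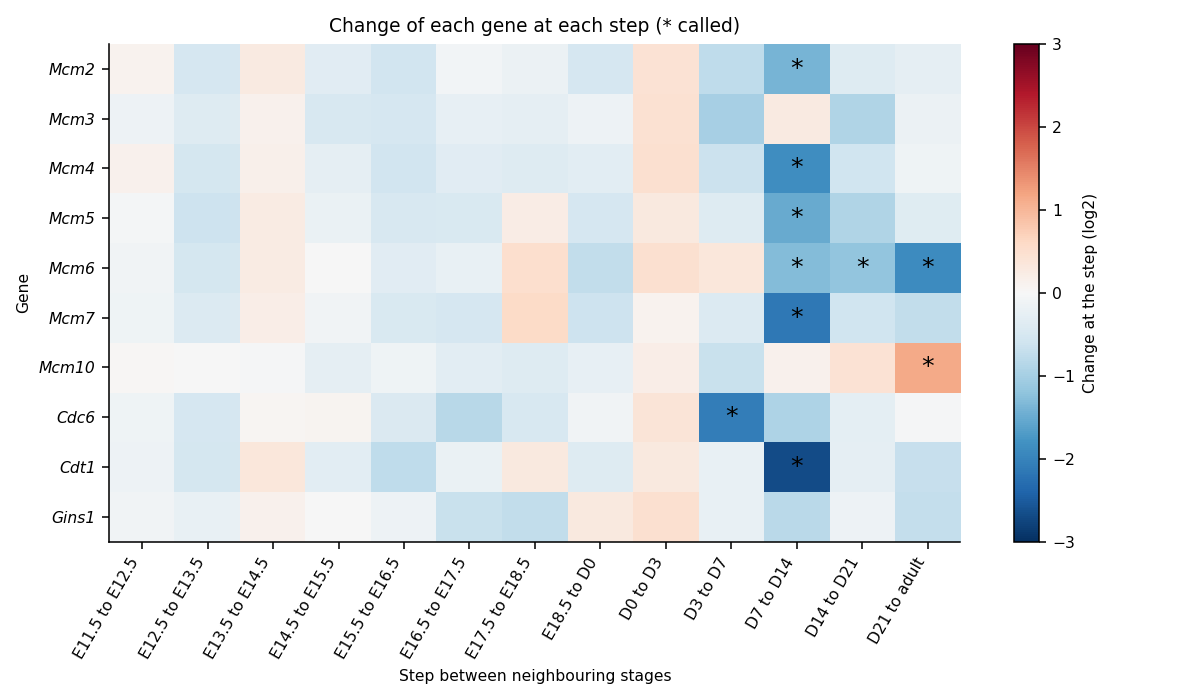
Change of each of the 10 genes (y axis) at each of the 13 steps between neighbouring stages (x axis), in log2 units from blue (fall) to red (rise). Asterisks mark the 10 called pairs, 6 of them at the step from Day7 to Day14.

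Mcm10 ran apart from the ring after birth. It was at 8.73 at E11.5, 7.63 at E18.5, 7.39 at Day0, 6.93 at Day7, 7.06 at Day14, 7.51 at Day21 and 8.64 in the adult, or 93.8% of its E11.5 level. The step from Day21 to the adult, 1.13 ± 0.16 (limma adjusted p = 0.000359), was the only rise called among the 10 genes, where 0.610% of all genes rose. The arrays behind it read 7.44 and 7.58 at Day21 and 8.27 and 9.02 in the adult. Without the second adult array the change was 0.76 and was not called. The pattern rests on 1 probe set, 1433408_a_at, whose suffix marks possible matches to several transcripts. That suffix is not particular to Mcm10. The sets used for Cdc6, which has only 1 set, and Cdt1 carry it too. Those used for Mcm2 and Mcm7 end in _s_at, and those for Mcm3 and Mcm5 in _x_at. Both other sets of Mcm10 stayed between 4.56 and 5.41 at all stages, and neither showed the fetal decline or the adult increase (0.05 and 0.11 from Day21 to the adult).

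Over the 6 postnatal pools, a line in log2(day + 1) gave changes from Day0 to the adult between -1.66 (Mcm3) and -4.54 (Mcm7) for 9 of the genes and of 1.08 ± 0.60 for Mcm10. No gene of the 18193 was called in this fit, a share of 0%, and the limma adjusted p of these 9 genes lay between 0.178 and 0.235. At an unadjusted p under 0.05 in limma, 9 of the 10 genes and 2540 of all genes passed. Mcm10 was at -0.28 without the adult pool.

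As a description, the Pearson correlation with the other ring subunits over the 14 stage means was 0.998 for Mcm5 and 0.878 for Mcm6. For Mcm10 it was 0.458 over all stages, 0.856 over the 8 fetal and -0.577 over the 6 postnatal stages.

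Other probe sets bear on these patterns. Of the 28 sets, 21 reached a log2 level of 6 at some stage. Those 21 differed by 0.90 to 3.11 between fetal and postnatal pools and had negative fetal slopes, and 19 of them were called higher in fetal pools. The remaining 7, from Mcm3, Mcm5, Mcm6, Mcm10, Cdt1 and Gins1, stayed under 6 throughout and differed by -0.13 to 0.26. A set can reach 6 through its fetal stages alone, so the split favours sets higher in fetal liver and gives no separate support. Calls of single sets use limma's adjusted p over all 45101 probe sets, and the share called among them was not counted. A second set of Mcm6 (1438852_x_at) was called higher in fetal liver, at 2.42 ± 0.69. At Day7 it stood at 44.4% of its E11.5 level, against 77.1% for the set used, and at Day14 at 6.37% against 31.3%. From Day14 to Day21 the second set went from 6.31 to 6.18, where the set used went from 9.18 to 7.99. The timing of the fall of Mcm6 between Day7 and Day21 is therefore uncertain. From Day21 to the adult the sets changed by -1.88 and -2.01, and over the fetal course by -0.65 (set used) and -1.19. For Mcm3 the set used (1449705_x_at) was at 8.53 at Day14, whereas 1420028_s_at went from 8.69 at Day7 to 6.57 at Day14.

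**Figure D5:**
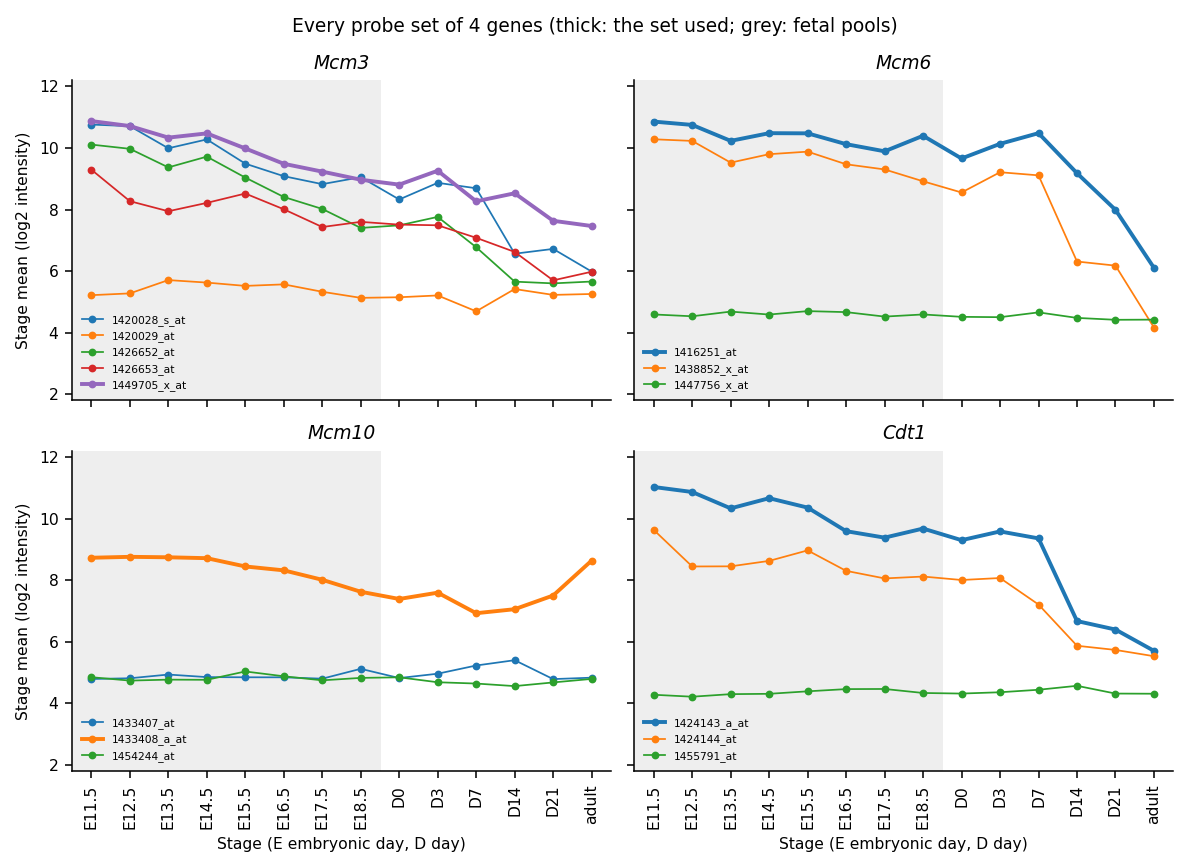
Stage means (log2 intensity) of every probe set of Mcm3, Mcm6, Mcm10 and Cdt1, with the set used drawn thick and fetal pools in grey. At Day14 the Mcm6 sets are at 9.18 and 6.31, and for Mcm10 the sets other than the one used stay between 4.56 and 5.41.

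The neighbouring genes of the pathway were read from lists of known members. Beside their counts stand 4.50% of all genes higher and 5.01% lower in fetal liver, and 12.0% falling and 4.40% rising over the fetal course. In origin recognition, 2 of 6 genes were higher in fetal liver and none was lower, and 3 fell over the fetal course, with median changes of 0.74 and -0.97. Orc6 differed most, by 2.07 ± 0.42, followed by Orc2 (1.37 ± 0.28). Orc5 fell over the fetal course (-1.01 ± 0.22). Orc1 (0.27 ± 0.14), Orc3 (0.49 ± 0.18) and Orc4 (0.45 ± 0.19) were not called in either comparison.

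Among 11 genes of licensing control, 3 were higher in fetal liver and none was lower, with a median of 0.77. Fbxo5, an inhibitor of the anaphase-promoting complex (2.42 ± 0.45), geminin (Gmnn, 1.84 ± 0.39) and Skp2, which marks Cdt1 for destruction (1.74 ± 0.35), were the called genes. Geminin went from 9.68 at E11.5 to 5.88 in the adult and its fetal and postnatal pools did not overlap. Over the fetal course 6 of these genes fell and 1 rose, Fzr1 (1.57 ± 0.41), the activator of the anaphase-promoting complex in G1. Fzr1 was not called without E12.5 or E18.5.

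Of 13 genes of helicase activation, 8 were higher in fetal liver, none was lower and 7 fell over the fetal course, with medians of 1.33 and -1.17. Dbf4 (2.44 ± 0.54) and Cdc7 (1.81 ± 0.30), the subunits of the kinase that activates the ring, were both higher, as were Topbp1 (2.25 ± 0.51) and Tipin (2.25 ± 0.51). Cdc45, the partner of the ring at the fork, was at -0.15 ± 0.12 and was not called. With the set used its level stayed between 6.50 and 7.33. Its fetal change was -0.49 to 0.94 over 19 alternative settings and turned sign in 1 of them.

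Of 26 genes of the fork and of nucleotide supply, 20 were higher in fetal liver, none was lower and 15 fell over the fetal course. The medians were 1.32 and -1.27. Rrm2, a subunit of ribonucleotide reductase, led with 2.76 ± 0.72, followed by Uhrf1, which reads hemimethylated DNA (2.73 ± 0.63), and Rfc4 of the clamp loader (2.17 ± 0.46). Rrm2 had no called fetal slope (-0.48 ± 0.29), while Uhrf1 fell by 2.85 over fetal life.

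Of 25 E2F and cyclin genes, 14 were higher in fetal liver and none was lower, with a median of 1.14. Over the fetal course 10 fell and 1 rose. The cyclins Ccne2 (2.70 ± 0.45) and Ccna2 (2.56 ± 0.53) led. Among the E2F genes E2f8 (1.39 ± 0.32), E2f7 (1.25 ± 0.34) and E2f6 (1.08 ± 0.23) were higher, and E2f1 (0.47 ± 0.10), E2f2 (1.36 ± 0.57), E2f3 (0.92 ± 0.25), E2f4 (0.68 ± 0.13) and E2f5 (0.16 ± 0.18) were not called. For E2f1, E2f3 and E2f4 the difference was several standard errors wide but under the size limit for a call. E2f3, E2f6 and E2f7 fell over the fetal course. The gene that rose there, Cdkn1a (1.27 ± 0.40), was not called in 11 of its 19 alternative settings.

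All 15 mitosis genes were higher in fetal liver, with a median of 2.27, close to that of the 10 licensing genes. Over the fetal course 3 of the 15 fell (Plk1, Cdc20 and Aurkb) and 1 rose (Nusap1, 1.63), with a median of -0.89. These calls were lost in 3 of 19 alternative settings for Nusap1, 3 of 19 for Cdc20, 5 of 18 for Aurkb and 0 of 19 for Plk1. Nusap1 was not called without E11.5, and Aurkb was not called without E11.5 or E18.5. Aurkb was also not called after quantile normalisation or at equal housekeeping levels. Mki67, the proliferation marker, differed by 3.03 ± 0.90 between the classes and had no called fetal slope (0.81 ± 0.72). Its difference between the classes was not called in 8 of 25 alternative settings, among them those without the adult, Day21 or Day14 pool. It was at 9.81 at E11.5, 12.06 at E12.5, 11.68 at E18.5 and 5.20 in the adult. Whether the fetal slopes of the mitosis and licensing genes differ was not tested.

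At equal housekeeping levels fewer genes of these lists fell over fetal life: 1 of origin recognition, 2 of licensing control, 4 of helicase activation, 11 of the fork, 7 of E2F and cyclin control and 1 of mitosis. Without E18.5, 1 gene of origin recognition fell.

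By the correlation of stage means with the averaged standardised profile of Mcm2 to Mcm7 over the 14 stages, the most similar genes outside the 10 were Cdc20 (0.991), Hat1, Cdk1, Ezh2, Dnajc9, Cdca8, Tipin, Tubb5, Cks2 and Ran (0.984). Cdc20, an activator of the anaphase-promoting complex, went from 11.01 at E11.5 to 8.98 at Day3, 6.65 at Day14 and 5.46 in the adult. Points in these correlations share their arrays and the order of age.

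Markers of blood and liver cells moved over the same stages. Of 12 erythroid genes 10 were higher in fetal liver, and their summed intensity was 11631 to 32758 in fetal and 1543 to 15586 in postnatal pools. Over fetal life this sum was 11631 at E11.5, 32758 at E15.5 and 25621 at E18.5. At the step from Day7 to Day14, where 6 of the 10 genes fell, the erythroid sum went from 6248 to 2274 and the granulocyte sum from 23406 to 2107. The megakaryocyte (1112 to 482), macrophage (9857 to 4777), endothelial (1995 to 1504) and stem and progenitor sums (655 to 405) were lower too. The hepatocyte sum went from 90543 to 95829. From Day3 to Day7, where 1 of the 10 genes fell, the erythroid sum went from 15586 to 6248. Blood stem and progenitor genes had 2 of 5 higher in fetal liver and 3 of 5 falling over fetal life, with sums of 2405 to 4226 in fetal and 393 to 1892 in postnatal pools. Of the megakaryocyte genes 1 of 4 was higher. Hepatocyte genes were lower in fetal pools for 5 of 8, with sums of 16518 to 83066 and of 67520 to 95829, and 6 of 8 rose over fetal life. Macrophage (2 of 6) and endothelial genes (2 of 5) had members lower in fetal liver. Over fetal life 8 of 9 granulocyte genes rose, with a median change of 5.41 and a sum of 2638 at E14.5 and 38687 at E18.5, and 6 of 6 macrophage genes rose, with sums of 1015 to 4395. Between fetal and postnatal pools, no granulocyte (1 of 9 at an unadjusted p under 0.05 in limma) or skeletal muscle gene (0 of 6) was called. No marker was listed at 0. The part of these cell types in the licensing genes' changes was not tested.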

How the data were processed

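Biotin-labelled RNA of pooled livers was hybridised to Affymetrix mouse arrays, 25 in all, per the labels' protocols. The authors deposited intensities on a linear scale (12.6 to 25175) for all arrays together. The submitters' processing notes name RMA, a method that corrects background, normalizes and summarises probe sets. Its version is not given in the sources used here. Since the design assumed a log2 scale, each deposited intensity was log2-transformed first. Array medians lay between 5.41 and 5.53 on that scale. No detection calls were used here, and the number of arrays limits the precision.

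Of 45101 probe sets, 34958 had 1 symbol in the platform annotation, 932 several and 9211 none. Entrez identifiers set against RefSeq (GRCm38.p6) changed 0 symbols. Sets with 1 symbol gave 18193 genes. Repeats were averaged per stage for the fetal against postnatal comparison and for the lines over embryonic day and over log2(day + 1). Steps between stages came from 1 fit of the 25 arrays, stage being the only factor. All fits used limma 3.58.1 in R 4.3.3 (with data.table, version 1.17.8) and were tested on simulated data. The 10 genes and the lists were chosen with earlier results of these data known. Named genes were the 10 members, the called and largest changes of each list, the E2f and Orc genes, Gmnn, Cdc45, Cdc7, Dbf4, Mki67 and the 10 most similar genes. Mcm3 and Mcm6 probe sets, Fzr1 and Cdkn1a settings, and the Day3 to Day21 contrast were singled out after the values were seen. A test of each gene against the mean ring profile, also added then, compares changes of different probe sets and is not reported. The lists covered origin recognition, licensing control, helicase activation, the fork and nucleotides, E2F and cyclins, mitosis, and markers of erythroid, hepatocyte, granulocyte, megakaryocyte, macrophage, endothelial, stem and progenitor, and muscle cells. Chaf1a and Ccnb1 had no probe set with 1 symbol. Housekeeping genes (14 of 18 measured) served for scaling. Alternatives covered scaling, probe sets, dim genes, the variance model, repeats, pools and time axes.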

Additional observations from a re-analysis of the deposited data

How the results depend on the processing

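Under 3 other scalings the sign of all 40 values of the 10 genes held. Leaving out 1 pool or repeat at a time gave 8 to 9 of the 10 genes higher in fetal liver (all genes 590 to 1025 higher and 788 to 1014 lower), 7 to 9 falling over the fetal course (all genes 665 to 962 rising and 1856 to 2330 falling), 0 in the postnatal course, and 0 to 1 rising and 9 to 10 falling pairs at the steps. For the fetal course, equal housekeeping levels gave 5 of the 10 genes falling, with 2448 rising and 884 falling of all genes, against 800 and 2179 as deposited. Unique probe sets, which leave out those ending in _a_at, _s_at or _x_at, gave 5 falling of the 8 genes measured. Cdc6 and Mcm7 had no unique set, and Mcm10 (0.16) and Cdt1 (-1.05) were measured but no longer called. The later against the earlier 4 pools gave 2 of the 10 (392 rising and 633 falling of all genes). Quantile normalisation gave 1329 and the mean of all sets 1446 falling genes. The cause was not tested. For the postnatal course, quantile normalisation called 1 rising and 2 falling genes and stage order as the time axis 7 and 29. A fit of all arrays with the repeats of a pool as correlated and the replicate number as a block called 237 rising and 694 falling genes, 8 of them among the 10, and with it Mcm6 was called higher in fetal liver (1.54). At the steps no rise remained (0) with the mean of sets, with unique sets or without the second adult array, and the adjusted p alone gave 2 rises and 18 falls. Values that turned sign were those of Mcm10 with unique probe sets (fetal against postnatal -0.13, the same for set 1433407_at, fetal course 0.16, postnatal course -0.013), of Mcm10 over the postnatal course without the adult pool (-0.28, against 1.88 without Day0), and of Cdt1 for set 1455791_at (-0.042). Arrays with the same replicate number deviated together, at a correlation above 0.1, in 38 of 55 stage pairs (lowest -0.57, median 0.40, highest 0.73). The first repeat had the higher mean intensity at 10 of the 11 stages with 2 arrays. The numbers were not taken to pair the samples in the main fits, so a shift shared by the first repeats would stay in them.

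Each stage is 1 pool, 3 stages have 1 array, and no pool is repeated, so age and pool cannot be told apart. The array number limits the precision, and dim probe sets compress differences.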
